A study of Arabidopsis thaliana with 72 samples.

Results

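Roots of Arabidopsis thaliana are not photosynthetic organs under most conditions, yet they transcribe nuclear genes of the photosynthetic apparatus at levels that depend on the medium and the genotype. The 46 genes described here, of 33602 in the expression table, were taken by gene ID from a list of nuclear genes set by function. The rule itself uses no measured values, but the list was drawn up with earlier results of these data known. They comprise 5 Rubisco genes (4 small subunit genes and Rubisco activase, RCA), 4 LHCA genes for the antenna of photosystem I, 13 LHCB genes for the antenna of photosystem II, 12 subunit genes of photosystem I, 9 of photosystem II, and 3 genes of electron carriers (the plastocyanins PETE1 and PETE2 and the Rieske protein PETC). All 46 passed the filter on low values, at least 1 RPKM in at least 3 of the 72 libraries, among 21206 genes that did so.

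In chloroplasts, LHC proteins bind chlorophyll and pass light energy to the photosystem cores. Electrons then move from photosystem II through the cytochrome b6f complex, of which the Rieske protein is a part, and through plastocyanin to photosystem I, and Rubisco fixes carbon dioxide in the Calvin cycle. The nuclear genes are translated in the cytosol and the proteins are imported into plastids, where they join subunits encoded by the plastid genome. Their transcription is known to depend on light signalling, on GLK transcription factors and on sugar and nutrient state, and in roots it is known to be repressed in part by auxin. PHR1 is a transcription factor of the MYB-CC family that activates phosphate starvation genes through a promoter element named P1BS, and PHL1 to PHL4 are related proteins.

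The series measured polyadenylated RNA in roots of seedlings aged 8 days, of 12 genotypes on medium without (-Pi) or with (+Pi) phosphate, with 3 biological replicates in each of 24 groups. The 11 mutants were phr1, phl1, phl2, phl3, phl4, phr1phl1, phr1phl2, phr1phl3, phr1phl4, phr1phl1phl2 (called the triple mutant here) and phr1phl1phl2phl3 (the quadruple mutant), and the wild type was Col-0 (Col). Alleles were not given in the labels. All plates held sucrose, and the labels name agar or agarose as the gelling agent without telling which plate held which. Whole roots were pooled into bulk RNA, so that fewer cells of a type and less RNA per cell cannot be told apart.

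The transcripts of PHR1, PHL1 and PHL2 were lower in every library whose label names the mutation than in every other library (PHR1 1.62 to 5.86 against 15.8 to 27.7 RPKM). PHL3 was at 1.93 to 3.87 RPKM in the 6 libraries labelled phr1phl3, but at 5.45 to 16.4 RPKM in the 12 libraries labelled phl3 or phr1phl1phl2phl3, against 3.99 to 15.6 RPKM in libraries that do not name phl3, so these mutants are named by their labels only. PHL4 was at 2.73 to 5.02 RPKM in libraries that name phl4, against 3.21 to 18.7 RPKM elsewhere, with an overlap. The 13 root markers were measured in all groups. Of 21 markers of leaves, stomata and shoot meristems (the aerial markers), 15 stayed under 1 RPKM in every library, the highest at 0.776. MUTE was at 0 in 70 of 72 libraries. The remaining aerial markers, KNAT1, CER1, KCS6, CER3, ATML1 and PDF1, each reached 1 RPKM in 55 or more libraries. PDF1 was at 9.29 to 89.1 RPKM and CER3 at 6.47 RPKM or more in every library, and KNAT1 reached 12.2 RPKM. By how values depended on transcript length and base composition, the libraries fell into 3 classes of 35, 20 and 17, in which short transcripts read high in class 2 and low in class 3. The exons of the 46 genes summed to a median of 1226.5 bases, against 1728 for all tested genes with an annotation. Classes that differ between compared groups are given beside many, but not all, of the results they touch. Library depth could only be estimated, from the spacing of low RPKM values, at 10900000 to 39500000 reads.

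The 4 promoters printed here belong to genes that the later results turn on. LHCB1.3 and LHCB1.5 are the pair of LHCB1 genes whose order of levels differed between groups, LHCB2.3 was the member least like the others, and PSBR was the only member with a P1BS element in this window. Each run is the 250 bases before the annotated transcript start on the coding strand, from RefSeq's TAIR10.1 assembly. Capitals mark CCAATC, a motif linked to GLK factors, CACGTG, the G-box of many light-regulated promoters, or GAATATCC, a match to P1BS (GNATATNC). The LHCB1.3 window lies at chr1:10477635-10477884 on the forward strand, that of LHCB1.5 at chr2:14523569-14523818 on the reverse strand, that of LHCB2.3 at chr3:10255656-10255905 on the forward strand, and that of PSBR at chr1:29735702-29735951 on the forward strand.
LHCB1.3: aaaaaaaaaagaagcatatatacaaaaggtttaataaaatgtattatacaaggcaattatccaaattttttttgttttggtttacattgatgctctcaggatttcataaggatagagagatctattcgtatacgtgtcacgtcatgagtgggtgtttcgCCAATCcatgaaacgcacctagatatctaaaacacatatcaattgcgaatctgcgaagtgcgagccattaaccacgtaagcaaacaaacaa
LHCB1.5: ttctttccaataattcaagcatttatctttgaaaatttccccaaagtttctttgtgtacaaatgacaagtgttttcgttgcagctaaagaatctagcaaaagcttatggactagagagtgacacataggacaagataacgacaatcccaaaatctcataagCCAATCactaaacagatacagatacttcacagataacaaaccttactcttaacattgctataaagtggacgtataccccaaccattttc
LHCB2.3: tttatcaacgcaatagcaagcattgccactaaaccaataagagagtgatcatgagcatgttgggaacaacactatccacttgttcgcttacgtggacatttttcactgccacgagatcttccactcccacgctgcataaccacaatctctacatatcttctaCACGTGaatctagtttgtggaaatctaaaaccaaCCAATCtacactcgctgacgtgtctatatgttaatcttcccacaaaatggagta
PSBR: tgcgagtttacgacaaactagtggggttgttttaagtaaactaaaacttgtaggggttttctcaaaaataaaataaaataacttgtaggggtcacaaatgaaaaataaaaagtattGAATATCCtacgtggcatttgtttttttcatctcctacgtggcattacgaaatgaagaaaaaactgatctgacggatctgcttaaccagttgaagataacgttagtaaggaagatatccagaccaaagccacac
Searched on both strands, CCAATC was in the windows of 14 of the 46 genes (30.4%) and in 10.2% of 27443 such windows of the genome. The G-box was in 9 members (19.6%) and in 6.5% of all windows, and GATAAG, the I-box, was in 13 members (28.3%) and in 12.3% of all windows. P1BS was in 1 member (2.2%) and in 5.5% of all windows. These motifs share no letters at the same bases in the windows printed here. LHCB1.3 and LHCB1.5 both held CCAATC and neither held P1BS.

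The summed level of the 46 genes spanned the widest range under -Pi. It was 3421, 3649 and 4529 RPKM in the 3 phr1phl4 -Pi libraries, against 58.2, 59.7 and 59.4 RPKM in the Col -Pi libraries. The phr1phl4 -Pi libraries were the highest of all 72, and did not overlap any other group. Under +Pi the sum was 1708, 1923 and 1501 RPKM in phr1phl4 and 2059, 1103 and 1205 RPKM in Col, so that the groups overlapped. Col +Pi replicate 1 was the highest of its group and the only one of class 2 there.

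From low to high, the mean summed levels were 59.1 RPKM in Col -Pi, 60.3 in phl1 -Pi, 73.8 in phl3 -Pi, 116 in phl2 -Pi, 141 in phr1 -Pi, 306 in phr1phl2 -Pi, 361 in phl4 -Pi, 469 in phr1phl3 -Pi and 582 in phr1phl1 -Pi. The libraries of Col -Pi and phl1 -Pi overlapped, as did those of phl1 -Pi and phl3 -Pi, of phr1phl2 -Pi and phl4 -Pi, and of phl4 -Pi and phr1phl3 -Pi, whereas phl3, phl2, phr1 and phr1phl2 under -Pi followed each other without overlap, and so did phr1phl3 and phr1phl1. Next came phr1phl1 +Pi at 680 RPKM, phl2 +Pi at 695, the triple mutant -Pi at 813, phl1 +Pi at 837, phl3 +Pi at 851, phr1 +Pi at 909, phr1phl3 +Pi at 1046, phr1phl2 +Pi at 1167, the quadruple mutant -Pi at 1315, Col +Pi at 1456, phl4 +Pi at 1476, the quadruple mutant +Pi at 1660, phr1phl4 +Pi at 1711 and the triple mutant +Pi at 2002 RPKM. In that upper part, neighbours overlapped except phr1 +Pi below phr1phl3 +Pi, and phr1phl3 +Pi below phr1phl2 +Pi. The triple mutant -Pi libraries were far apart, at 380, 503 and 1556 RPKM, so replicate 3 sets that mean. Libraries also differed widely in phr1phl2 -Pi (201, 466 and 252 RPKM) and the quadruple mutant -Pi (1011, 1830 and 1105 RPKM). The same held for phl4 +Pi (1296, 1039 and 2094 RPKM) and the triple mutant +Pi (1680, 2653 and 1672 RPKM).

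**Figure D1:**
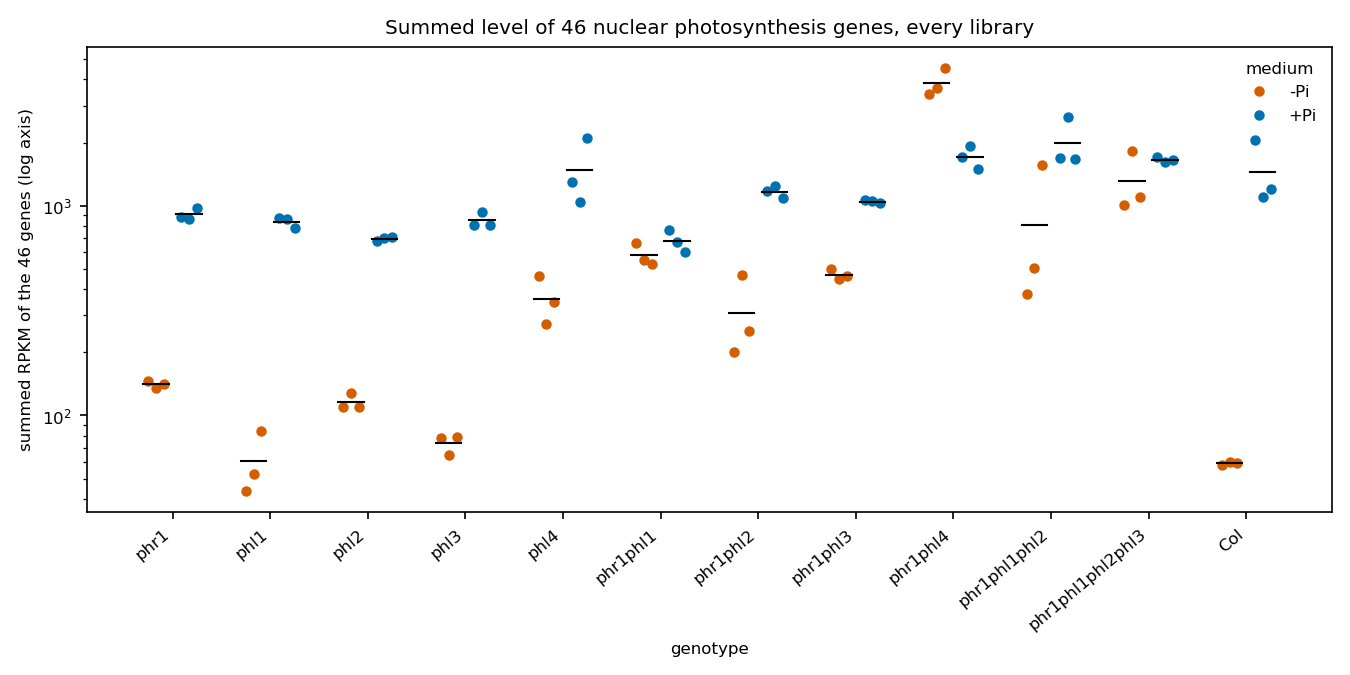
Summed RPKM of the 46 genes in each of the 72 libraries on a log axis, with -Pi left of +Pi in each genotype, Col at the right and a line at each group's mean. The phr1phl4 -Pi libraries, at 3421 to 4529 RPKM, sit above all others, and the Col -Pi libraries lie between 58.2 and 59.7 RPKM.

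Single members shared the top of this order more than its middle. The median of the member means was 9.53 RPKM in phr1phl1 -Pi, but 5.35 in phl2 +Pi and 8.32 in phl3 +Pi, whose sums were higher. In the quadruple mutant it was 21.1 RPKM on -Pi and 15.1 RPKM on +Pi medium, the reverse of the sums. LHCB1.5 alone had a mean of 480 RPKM in the quadruple mutant +Pi. The group with the highest mean was phr1phl4 -Pi for 37 of the 46, the triple mutant +Pi for 6, and a different +Pi group for RCA (the quadruple mutant), LHCB1.5 (phr1phl2) and PSBO2 (Col). The group with the lowest mean was Col -Pi for 21, phl3 -Pi for 11, phl1 -Pi for 10, phl2 -Pi for 3 and phr1 -Pi for 1. The mean of a member was 10 RPKM or more for 41 members in phr1phl4 -Pi, for none in Col -Pi and for 35 in Col +Pi. Across the 24 group means, the correlation of a member with the mean of the other 45 had a median of 0.944 and was over 0.9 for 29 members. It was lowest for LHCB2.3, at 0.606. These correlations are descriptions over groups that share a few sources of variation.

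**Figure D2:**
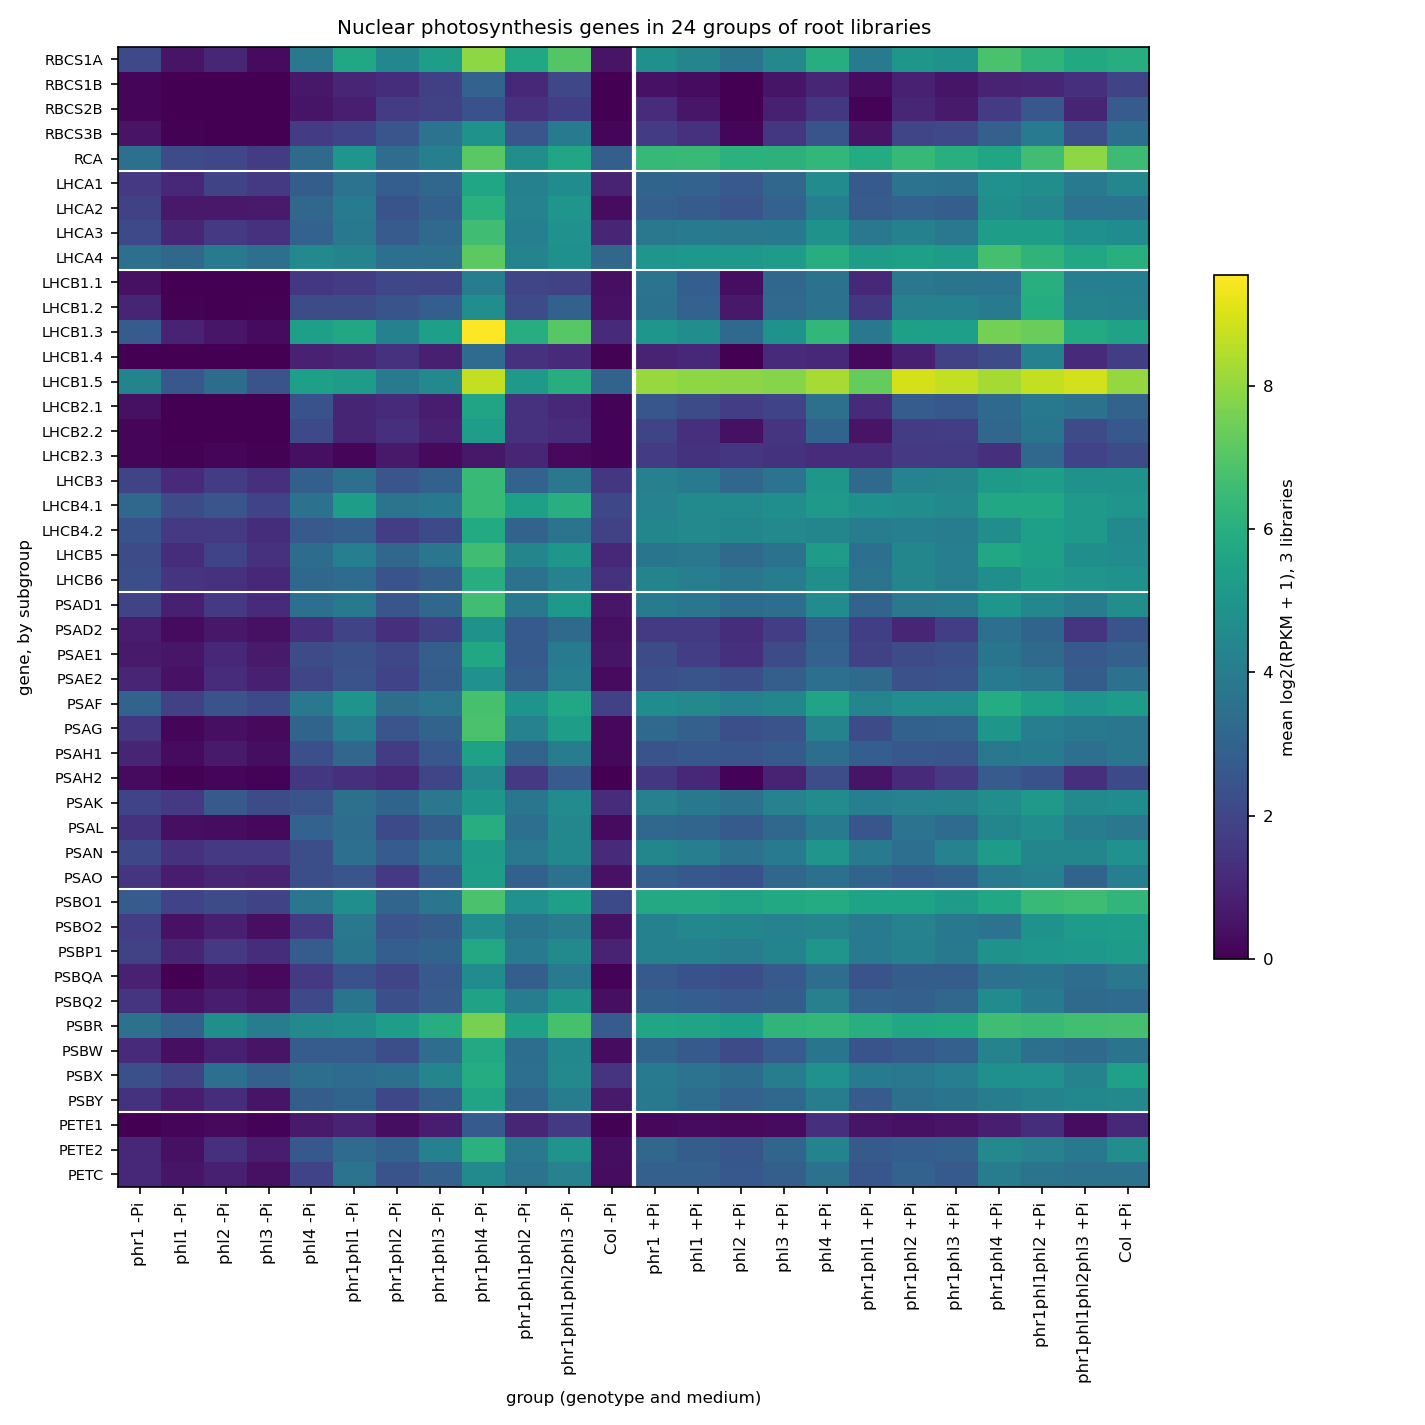
Mean log2(RPKM + 1) of each of the 46 genes (rows, by subgroup) in each of the 24 groups (columns), with -Pi groups left of +Pi groups and Col last in each block. Most rows are lowest in Col, phl1, phl2 and phl3 under -Pi and highest in phr1phl4 under -Pi.

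In Col, all 46 genes were lower on -Pi than on +Pi medium, and the median log2 change was -3.47. This was called when limma's moderated test on log2(RPKM + 1), adjusted by Benjamini-Hochberg over all 21206 tested genes, gave an adjusted p under 0.05 and the log2 change was at least 1 in size. Of all tested genes, 8.2% were called lower and 6.24% higher in that comparison. Every fold here is on the log2(RPKM + 1) scale, which understates the change of low genes. A value after ± is the standard error of the fold it follows.

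The Rubisco genes fell by a median of 3.33 in Col. RBCS1A (AT1G67090), the most abundant small subunit transcript, was at 0.697, 0.209 and 0.361 RPKM in Col -Pi and at 101, 41.0 and 52.3 RPKM in Col +Pi. The groups were far apart, and RBCS1A fell by 5.44 ± 0.41 (adjusted p = 1.04e-16), the largest change of all members. RBCS1B and RBCS2B are listed at 0 in all 3 Col -Pi libraries, so no fold is given for them. RBCS1B was at 5.01, 2.12 and 2.24 RPKM in Col +Pi. RBCS1B and RBCS2B are 97.3% identical in coding sequence and RBCS3B is 94.1% to 94.3% identical to these, so how reads were split among them is uncertain. RCA, which frees Rubisco of bound inhibitors, was at 6.89, 6.07 and 6.41 RPKM in Col -Pi and at 89.7, 95.9 and 93.3 RPKM in Col +Pi. It fell by 3.66 ± 0.19, with little spread on either medium.

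The antenna genes moved alike. The median log2 change was -3.39 for LHCA, with LHCA3 at -3.63 ± 0.27 and LHCA4 at -2.82 ± 0.34, and -3.35 for LHCB. LHCB1.5 (AT2G34420), the most abundant of the 46 transcripts in Col +Pi, was at 6.36, 6.75 and 9.08 RPKM in Col -Pi and at 267, 282 and 239 RPKM in Col +Pi. LHCB1.5 fell by 4.98 ± 0.26 (adjusted p = 4.3e-23), while LHCB1.4 fell by 1.72 ± 0.44. LHCB1.3 (AT1G29930) was at 0.9, 1.27 and 1.42 RPKM in Col -Pi and at 72.2, 34.5 and 35.7 RPKM in Col +Pi. LHCB2.3 was at 0.119, 0.0452 and 0.0489 RPKM in Col -Pi and at 5.30, 2.6 and 3.06 RPKM in Col +Pi. Both LHCB1.3 and LHCB2.3 were highest in Col +Pi replicate 1, which was not so for LHCB1.5 or RCA.

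The photosystem genes fell by medians of 3.48 for photosystem I and 4.0 for photosystem II. PSAD1 and PSAD2 encode near copies of the ferredoxin-docking subunit of photosystem I, and had the largest and the smallest change of that subgroup, -4.13 ± 0.36 and -2.04 ± 0.38. PSBO2, one of a pair of genes for the manganese-stabilising protein of the oxygen-evolving complex, was at 0.453, 0.481 and 0.186 RPKM in Col -Pi and at 57.7, 29.0 and 34.8 RPKM in Col +Pi. It fell by 4.86 ± 0.21 (adjusted p = 7.67e-27), and PSBQ2, also of that complex, by 2.95 ± 0.25. The carriers had a median of -3.28, between -4.36 ± 0.50 for PETE2 and -1.06 ± 0.29 for PETE1 (adjusted p = 0.0022).

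Beside these falls, the summed level of the aerial markers was 35.5, 36.4 and 35.4 RPKM in Col -Pi and 109, 77.1 and 95.3 RPKM in Col +Pi, and 2 of its 6 tested genes fell, PDF1 by 1.92 and KNAT1 by 1.22. Over all libraries PDF1 had the highest median of these markers, 34.1 RPKM, before CER3 at 9.88, and so weighed most in the sum. Of the 13 root markers, PLT1 rose by 1.26 and no other was called. The part of aerial tissue in the result was not tested. With class 1 libraries alone, which leaves out Col +Pi replicate 1, 45 of 46 genes fell.

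In the mutants on -Pi medium, the 46 genes were higher than in Col in 8 of 11 genotypes for 13 to 45 members, and no member was lower in those 8. All 11 comparisons use the same 3 Col -Pi libraries. In phr1phl4, 45 of 46 were higher and the median log2 difference was 4.75, where 12.9% of all tested genes were called higher. In the quadruple mutant 45 were higher (median 3.40, with 11.4% of all tested genes), in the triple mutant 44 (2.59, 7.81%), in phr1phl1 40 (2.23, 7%), in phr1phl3 39 (2.25, 15.2%), in phl4 37 (1.73, 5.37%), in phr1phl2 36 (1.63, 10.5%) and in phr1 13 (0.77, 2.32%). Leaving out 1 library at a time, the count ranged from 31 to 46 in the triple mutant and from 29 to 41 in phr1phl2. In phl2, 4 members were higher, where 10.7% of all tested genes were. In phl3, 3 were higher and 1 lower, where 10.2% and 3.59% of all tested genes were. In phl1 limma called 0 of 46, 1 had an unadjusted p under 0.05, and 0.0802% of all tested genes were called higher and 0.17% lower.

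**Figure D3:**
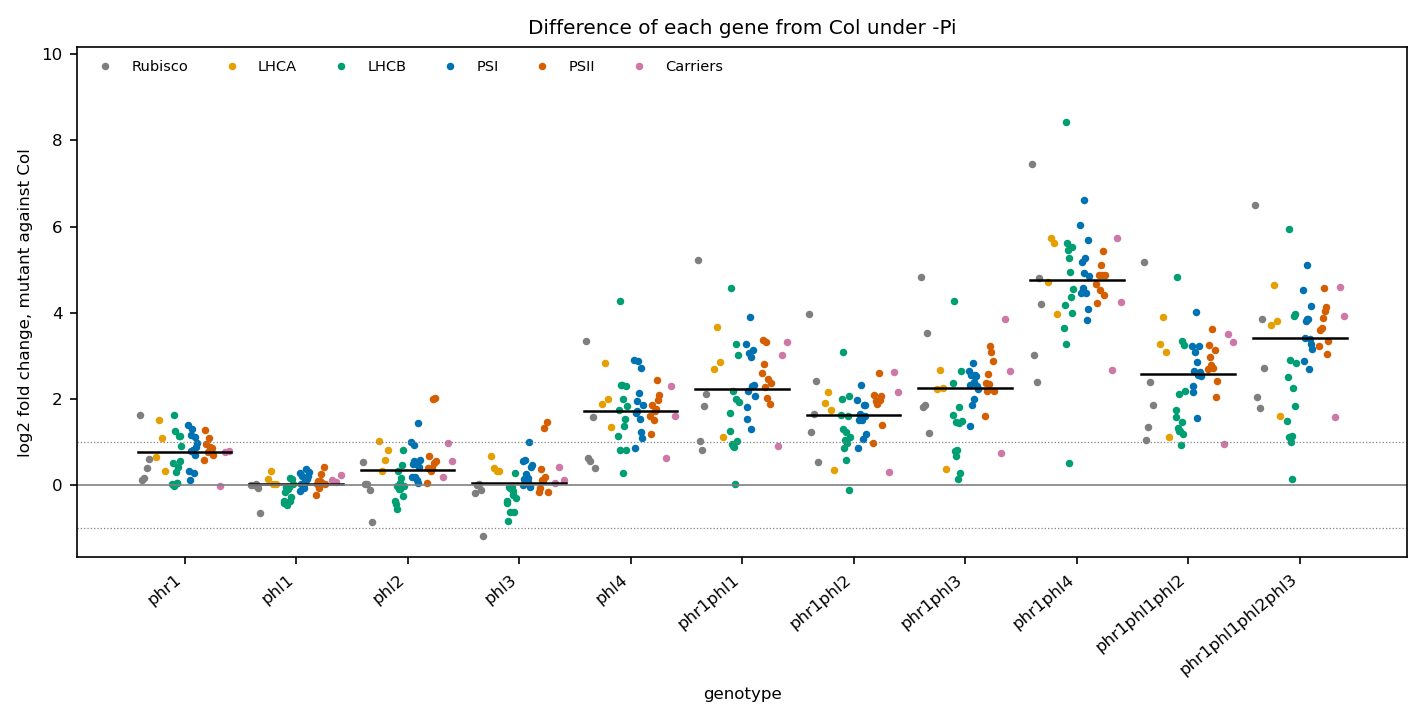
Log2 difference on -Pi medium between each mutant and Col for each of the 46 genes, coloured by subgroup, with a black line at the median and dotted lines at a log2 difference of 1 in either direction. The median is 4.75 in phr1phl4, 3.40 in the quadruple mutant and 0.02 in phl1.

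The rise in phr1phl4 took in every subgroup, namely 5 of 5 Rubisco genes, 4 of 4 LHCA, 12 of 13 LHCB, 12 of 12 of photosystem I, 9 of 9 of photosystem II and 3 of 3 carriers. LHCB1.3 was at 722, 757 and 766 RPKM in phr1phl4 -Pi, against 0.9, 1.27 and 1.42 RPKM in Col -Pi. Its log2 difference of 8.42 ± 0.30 (adjusted p = 7.48e-30) was the largest of the 46. LHCB2.3 was at 0.728, 0.270 and 0.641 RPKM in phr1phl4 -Pi, against 0.119, 0.0452 and 0.0489 RPKM in Col -Pi, and was the member not called (0.52 ± 0.33, adjusted p = 0.19). Both groups of that gene were under 1 RPKM.

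RBCS1A was at 212, 229 and 305 RPKM in phr1phl4 -Pi and rose by 7.45 ± 0.41 (adjusted p = 4.23e-22) relative to Col -Pi, the most of the Rubisco genes, and RCA, at 137, 134 and 136 RPKM there, rose by 4.2 ± 0.19. RBCS1B, listed at 0 in Col -Pi, was at 5.77, 6.54 and 9.33 RPKM in phr1phl4 -Pi. PSAG, a subunit at the antenna side of photosystem I, was at 98.8, 111 and 129 RPKM, against 0.385, 0.110 and 0 RPKM in Col -Pi, and rose by 6.62 ± 0.33. PSAK, also on the antenna side, rose by 3.84 ± 0.37. LHCA2 rose by 5.74 ± 0.31 and LHCA4 by 3.96 ± 0.34, both of the photosystem I antenna. In photosystem II the extremes were PSBW (5.43 ± 0.42) and PSBO2 (4.21 ± 0.21), and among carriers PETE2 (5.74 ± 0.50) and PETE1 (2.66 ± 0.29).

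These per-library values were high in each of the 3 phr1phl4 -Pi libraries, of which 1 was of class 1 and the other two of class 2. With class 1 libraries alone, 45 of 46 genes were called. The aerial markers summed to 90.4, 93.1 and 85.4 RPKM in phr1phl4 -Pi and to 35.5, 36.4 and 35.4 RPKM in Col -Pi, and 3 of 6 tested rose, KCS6 by 2.92, KNAT1 by 2.31 and PDF1 by 1.39. The 15 others, which include the stomatal lineage genes SPCH, MUTE and FAMA, stayed under 1 RPKM. The root markers summed to 4493, 4078 and 3543 RPKM in phr1phl4 -Pi and to 6441, 6980 and 6896 RPKM in Col -Pi, with SCR called lower (-1.1). PYK10, at 3259 RPKM or more in every library, made up most of the root sum, while CASP1, the next, reached 217 RPKM. The part of the aerial and root markers in the rise was not tested. In phr1phl1 -Pi the aerial markers were at 26.8, 24.1 and 26.4 RPKM, below all 3 Col -Pi libraries, and CER1 was called lower (-1.37). In phl4 -Pi they were at 77.8, 72.9 and 70.3 RPKM, above all 3 Col -Pi libraries, and 3 of 6 were called higher. In the other -Pi groups the lowest and highest library were 69.1 and 76.2 RPKM in phr1 (1 marker higher), 68.3 and 80.3 in phr1phl2 (1 higher and 1 lower), 61.0 and 64.8 in phr1phl3 (1 higher and 1 lower), 42.5 and 45.8 in the quadruple mutant (2 higher and 1 lower) and 37.4 and 37.7 in the triple mutant (1 lower). The summed level was 37.6 to 44.4 RPKM in phl1 -Pi, 35.4 to 40.9 RPKM in phl2 -Pi and 25.7 to 30.7 RPKM in phl3 -Pi. The part of aerial tissue was not tested in any of these.

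RBCS1A and LHCB1.3 also had the largest differences from Col -Pi in phr1phl1 (5.23 ± 0.41 and 4.57 ± 0.30), phr1phl2 (3.97 ± 0.41 and 3.08 ± 0.30), phr1phl3 (4.83 ± 0.41 and 4.27 ± 0.30), the triple (5.19 ± 0.41 and 4.82 ± 0.30) and the quadruple mutant (6.51 ± 0.41 and 5.95 ± 0.30). In the triple mutant -Pi libraries, RBCS1A had a mean of 67.2 RPKM with an SD of 62.5, and LHCB1.3 a mean of 76.9 with an SD of 67.8. The standard errors rest on a spread shared by all groups, so they do not show how far apart these libraries were. In phl4, whose label names no phr1 mutation, LHCB1.3 rose by 4.26 ± 0.30 (adjusted p = 1.4e-16) and RBCS1A by 3.35 ± 0.41. LHCB1.3 was at 49.0, 36.7 and 38.0 RPKM in phl4 -Pi, so each library stood above Col -Pi. RCA was at 10.9, 8.33 and 7.36 RPKM in phl4 -Pi, and its difference of 0.39 ± 0.19 was not called. LHCB2.3 was not called in any of the 11 mutants. All phr1phl3 -Pi libraries were of class 2, and all Col -Pi libraries of class 1. The -Pi libraries of phl4 and phr1phl2 were 1 of class 1 and the others of class 2, and with class 1 libraries alone 23 members were called in phl4 and 22 in phr1phl2.

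In phr1, the 13 genes that rose were RBCS1A (1.63), LHCA2 (1.52), LHCA3 (1.08), LHCB1.3 (1.62), LHCB1.5 (1.26), LHCB4.1 (1.14), LHCB5 (1.12), PSAD1 (1.4), PSAG (1.3), PSAF (1.15), PSAL (1.12), PSBO2 (1.27) and PSBQ2 (1.1), hence at least 1 of each subgroup but the carriers. Both phr1 and Col held class 1 libraries only under -Pi. In phl2, PSBX (2.02), PSBR (2.0), PSAK (1.44) and LHCA1 (1.02) were higher, and in libraries labelled phl3, PSBX (1.47), PSBR (1.33) and PSAK (1.00) were higher while RCA was lower (-1.20 ± 0.19). All phl2 and phl3 -Pi libraries were of class 2 and all Col -Pi libraries of class 1, and with class as a term in the fit 0 members were called in phl2 (limma) and 2 in phl3, and the median turned to -0.36 in phl2, against 0.36 without the term, and to -0.62 in phl3, against 0.05.

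The 3 steps from phr1 to the quadruple mutant were compared on -Pi medium. The double mutant phr1phl1 had 30 members higher than phr1 and none lower, with a median of 1.54, where 3.68% of all tested genes were called higher. RBCS1A differed by 3.60 ± 0.41, LHCB1.3 by 2.96 ± 0.30 and PSAG by 2.6 ± 0.33, and all libraries of both groups were of class 1. Between the triple mutant and phr1phl1, limma called 0 members (median 0.24, 1 with an unadjusted p under 0.05), where 0.0613% of all tested genes were called higher and 0.0943% lower. Between the quadruple and the triple mutant 2 were called higher, LHCB1.3 (1.13) and PSAD1 (1.3), where 0.486% of all tested genes were, and the count was 28 without the triple mutant's -Pi replicate 3 and 0 without its replicate 1 or the quadruple mutant's replicate 2 (limma).

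Within the genotypes other than Col, the change on -Pi medium ranged from a fall of most members to a rise. The members fell in phl1 (42 of 46, median -2.39), phl3 (41, -2.31), phr1 (40, -1.81), phl4 (32, -1.51) and phl2 (31, -1.61), and none rose in these 5. Of all tested genes, 5.24% were called lower in phl1, 8.83% in phl3, 4.3% in phr1, 5.38% in phl4 and 9.46% in phl2. In phl2 and phl3, all -Pi libraries were of class 2 and all +Pi libraries of class 3. In phr1phl2, 22 fell (median -0.90, with 4.55% of all tested genes), and in the triple mutant 25 fell (-1.14, 3.28%). In phr1phl3, 13 fell and 4 rose (median -0.47), where 7.66% of all tested genes were called lower and 16.7% higher. The 4 that rose, a smaller share than among all tested genes, were RBCS1B (1.29 ± 0.38), RBCS2B (1.16 ± 0.49), RBCS3B (1.53 ± 0.59) and PETE2 (1.22 ± 0.50).

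These counts moved with the class of the libraries and with the spread estimate. Shares of all tested genes under these settings are not given here, so the counts below stand without a background. With class as a term, 36 members fell in phr1phl2, and in phr1phl3 29 fell and none rose. Fitted without the other genotypes, 19 fell in phl4 and 5 in the triple mutant, and the triple mutant's count was 14 without its +Pi replicate 2 and 15 without its -Pi replicate 1.

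**Figure D4:**
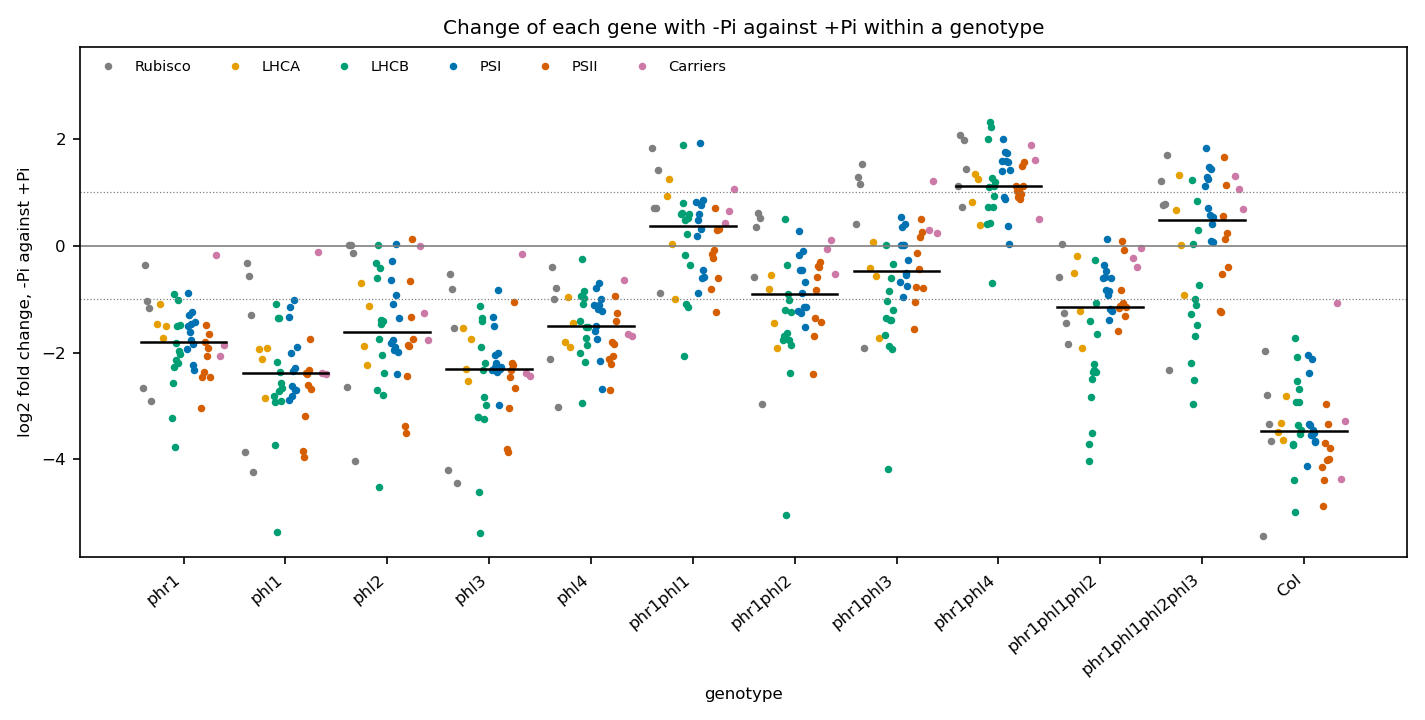
Log2 change on -Pi relative to +Pi medium within each genotype for each of the 46 genes, coloured by subgroup, with a black line at the median and dotted lines at a log2 change of 1 in either direction. The median runs from -3.47 in Col to 1.12 in phr1phl4.

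In phr1phl4, 27 of 46 members rose on -Pi relative to +Pi medium and none fell (median 1.12), where 6.02% of all tested genes were called higher. The rise took in 4 of 5 Rubisco genes, 2 of 4 LHCA, 6 of 13 LHCB, 8 of 12 of photosystem I, 5 of 9 of photosystem II and 2 of 3 carriers. LHCB2.1 was at 48.6, 48.7 and 42 RPKM in phr1phl4 -Pi and at 8.72, 8.83 and 8.05 RPKM in phr1phl4 +Pi. The groups did not overlap, and LHCB2.1 rose by 2.31 ± 0.41 (adjusted p = 8.07e-06). LHCB1.3 was at 722, 757 and 766 RPKM in -Pi and at 183, 200 and 176 RPKM in +Pi, and rose by 2.0 ± 0.30 (adjusted p = 3.26e-07).

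RCA was at 137, 134 and 136 RPKM in phr1phl4 -Pi and at 52.5, 46.3 and 49.4 RPKM in phr1phl4 +Pi, and rose by 1.44 ± 0.19. RBCS1B had the largest log2 change of the Rubisco genes (2.07) and RBCS2B the smallest (0.72, not called). PETE1, the plastocyanin gene with the smaller log2(RPKM + 1) fall in Col, rose by 1.90 ± 0.29. Its mean in Col +Pi was only 1.26 RPKM, which limits how large that fall could be. PETE1 was at 3.72, 5.27 and 8.48 RPKM in phr1phl4 -Pi and at 0.740, 1.04 and 0.536 RPKM in phr1phl4 +Pi. PSAE1 (1.99) and PSAN (0.03) were the extremes of photosystem I, and PSBY (1.57) and PSBQ2 (0.88) those of photosystem II. LHCB2.3 had a log2 change of -0.69 ± 0.33 (adjusted p = 0.126).

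LHCB1.5 was at 395, 365 and 481 RPKM in phr1phl4 -Pi and at 322, 302 and 291 RPKM in phr1phl4 +Pi, groups that did not overlap but differed less than those of LHCB1.3. The phr1phl4 +Pi libraries were all of class 1, and 1 of the -Pi libraries was. With class as a term in the fit 13 members rose and none fell, and with class 1 libraries alone 16 rose, and none fell. The part of class in the size of the rise was not tested.

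Both phr1phl1 and the quadruple mutant had genes that rose beside genes that fell. In phr1phl1, 6 rose and 4 fell (median 0.37), where 10.8% of all tested genes were called higher and 3.15% lower. The 6 were RBCS1A (1.83 ± 0.41), RBCS3B (1.42), LHCA2 (1.25), LHCB1.3 (1.89 ± 0.30), PSAG (1.92 ± 0.33) and PETC (1.07), and the 4 were LHCB1.5 (-2.06 ± 0.26), LHCB4.2 (-1.14), LHCB2.3 (-1.1) and PSBR (-1.23). In the quadruple mutant, 13 rose and 10 fell (median 0.48), where 16.7% were called higher and 4.35% lower. Of the 10, 7 were LHCB genes, among them LHCB1.5 (-2.96 ± 0.26) and LHCB2.1 (-2.51), and the others were RCA (-2.32 ± 0.19), PSBO1 (-1.23) and PSBO2 (-1.24).

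RCA was at 46.7, 49.8 and 47.2 RPKM in the quadruple mutant -Pi and at 242, 235 and 251 RPKM in the quadruple mutant +Pi, the highest level of RCA in the series. Of its 13 genes that rose, 6 were of photosystem I, PSAD2 among them (1.83), and PSBQ2 (1.66), PSBW (1.15), RBCS3B (1.70), LHCA2 (1.33), PETE1 (1.31), LHCB1.3 (1.24 ± 0.30) and RBCS1A (1.22) were of the other subgroups. The median of all tested genes was 0.22 in phr1phl1 and 0.25 in the quadruple mutant. After scaling of the libraries to a common median ratio, 4 rose and 7 fell in phr1phl1, and 8 rose and 12 fell in the quadruple mutant. All +Pi libraries of both genotypes were of class 3, in which short transcripts read low, and no -Pi library was. With class as a term, 4 rose and 4 fell in phr1phl1, and 3 rose and 12 fell in the quadruple mutant.

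Whether the response differed from that of Col was tested directly for each mutant, as the log2 change within the mutant minus that within Col. All called members were higher, which is to say the fall was smaller or was a rise. The count was 46 of 46 in phr1phl4 (median 4.65, where 9.51% of all tested genes were called higher), 45 in phr1phl1 (13.5%), 43 in the quadruple mutant (22.4%), 41 in phr1phl2 (23%), 41 in phr1phl3 (22.5%), 39 in phl2 (23.6%), 34 in phl4 (5.75%), 33 in the triple mutant (12.9%), 27 in phr1 (4.31%), 18 in phl3 (23.3%) and 8 in phl1 (6.81%). With class as a term, limma called 0 in phl1, 0 in phl3 and 4 in phl2. Without Col +Pi replicate 1 the count was 0 in phl1, 4 in phl3, 17 in phr1 and 20 in phl4. Without phl1 -Pi replicate 3 it was 0 in phl1, and without phl4 +Pi replicate 2 it was 22 in phl4. In phr1phl4, RBCS1A differed by 6.56 ± 0.58, LHCB1.3 by 6.39 ± 0.43 and PETE2 by 5.96 ± 0.71, and the smallest difference was that of LHCB2.3 (1.39 ± 0.47, adjusted p = 0.021). Of the 8 in phl1, PSBX differed by 2.25 ± 0.79.

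On +Pi medium the mutants were mostly below Col or close to it, and the counts depended on Col +Pi replicate 1. The lower members numbered 34 in phl2 (median -1.31, where 10.1% of all tested genes were called lower), 26 in phr1phl1 (-1.18, 7.17%), 18 in phl3 (9%), 15 in phl1 (3.47%), 11 in phr1phl2 (5.29%), 9 in phr1 (1.7%) and 6 in phr1phl3 (1.39%), and none was higher in these 7. Without that Col library, the counts were 19 in phl2, 19 in phr1phl1, 2 in phl3, 2 in phl1, 1 in phr1phl2, 0 in phr1 (limma) and 2 in phr1phl3. In phl4 limma called 0 members (6 with an unadjusted p under 0.05), where 0.665% of all tested genes were called higher and 0.986% lower. The member with the lowest value against Col was RBCS2B or RBCS3B in phr1, phl1, phl3, phr1phl3 and the quadruple mutant, with RBCS2B at -2.20 ± 0.49 in phl1 and -2.10 ± 0.49 in phr1phl3. LHCB1.1 was lowest in phl2 (-3.78 ± 0.52) and phr1phl1 (-3.07 ± 0.52), both of them genotypes whose +Pi libraries were all of class 3.

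Members that rose on +Pi medium were found in 3 mutants. In the triple mutant 6 rose, all of them LHCB genes, namely LHCB1.4 (2.43), LHCB1.1 (1.88), LHCB1.3 (1.85), LHCB1.2 (1.74), LHCB2.2 (1.08) and LHCB2.3 (1.06), where 0.571% of all tested genes were called higher. The triple mutant's +Pi libraries were 1 of class 2 and 2 of class 3, and those of Col 2 of class 1 and 1 of class 2. Leaving out 1 library at a time, the triple mutant's count ranged from 4 to 10, and it was 2 with the compared groups alone. In phr1phl4, 6 rose and 2 fell, where 3.01% were called higher and 2.59% lower. The 6 were LHCB1.3 (2.04 ± 0.30), PSAG (1.33), PSBQ2 (1.29), LHCA2 (1.09), LHCB5 (1.08) and PSAD2 (1.02), and PSBO2 (-1.68 ± 0.21) and RBCS1B (-1.03) fell. After median-ratio scaling, 3 rose and 2 fell in phr1phl4, and with class 1 libraries alone 13 rose and 1 fell. In the quadruple mutant RCA rose by 1.37 ± 0.19 and RBCS2B fell by 1.79 ± 0.49, where 0.495% of all tested genes were called higher and 7.09% lower.

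LHCB1.3 and LHCB1.5, 89.3% identical in coding sequence, differed in which was the main LHCB1 transcript. They were singled out after their values were seen, and the shares have no test. LHCB1.3 made up 62.2%, 64.7% and 58.8% of the summed RPKM of the 5 LHCB1 genes in phr1phl4 -Pi, and 34.4%, 37.0% and 35.9% in phr1phl4 +Pi, against 11.2%, 14.6% and 12.5% in Col -Pi and 18.7%, 9.90% and 11.7% in Col +Pi. LHCB1.5 made up 34.0%, 31.2% and 36.9% in phr1phl4 -Pi and 79.4%, 77.6% and 80.0% in Col -Pi. The mean share of LHCB1.3 on -Pi medium was 65.1% in the quadruple mutant, 57.3% in the triple mutant, 56.4% in phr1phl3, 54.0% in phr1phl1, 46.1% in phl4 and 43.0% in phr1phl2, but 21.9% in phr1, 4.84% in phl2 and 4.55% in phl3. On +Pi medium it was 9.84% in the quadruple mutant and 7.65% in phr1phl1, so the share stood higher on -Pi medium in both of these genotypes. In Col it was 12.8% on -Pi and 13.4% on +Pi. The +Pi shares of the other mutants in that -Pi list are not given here. The coding sequences of LHCB1.1, LHCB1.2 and LHCB1.3 are 95.6% to 96.4% identical, so reads may be split between these uncertainly. LHCB1.5 overlaps, over all of its 1045 bases, a gene on the opposite strand that is not in the table. It also overlaps a gene of the table by 99 bases, and LHCB1.3 overlaps another by 108 bases.

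**Figure D5:**
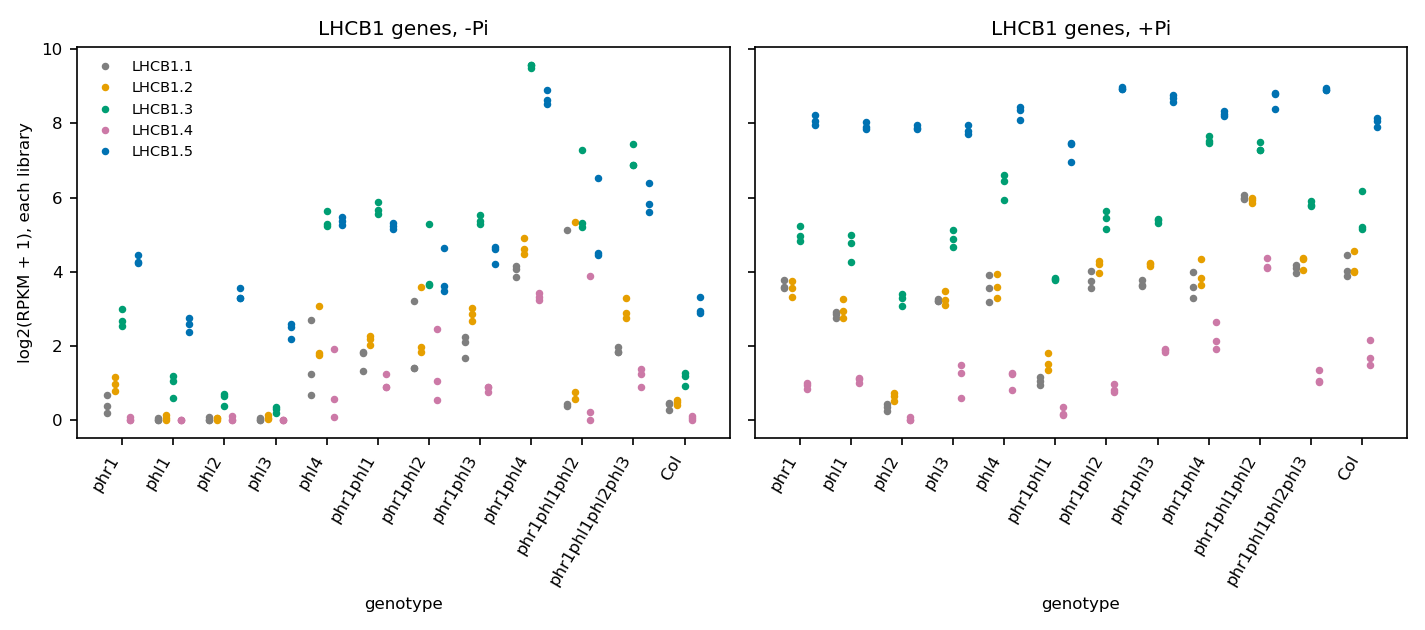
Log2(RPKM + 1) of the 5 LHCB1 genes in each library, with -Pi in the left panel and +Pi in the right panel and Col last in each. LHCB1.5 is the highest gene in all 3 Col libraries on both media, and LHCB1.3 is the highest in the phr1phl4 -Pi libraries, at 722 to 766 RPKM.

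PSBR, the member with a P1BS element in its window, was at 149, 171 and 285 RPKM in phr1phl4 -Pi and at 91.3, 139 and 75.5 RPKM in phr1phl4 +Pi, against 5.48, 6.47 and 5.14 RPKM in Col -Pi and 202, 81.9 and 71.9 RPKM in Col +Pi. It thus stood lower on -Pi than on +Pi medium in Col, like the other 45. PSBO2, for which phr1phl4 -Pi was not the highest group, was at 23.3, 21.9 and 28.3 RPKM in phr1phl4 -Pi, 11.8, 11.7 and 10.9 RPKM in phr1phl4 +Pi and 57.7, 29.0 and 34.8 RPKM in Col +Pi. Of the 46 genes, 16 overlap another gene of the table, 6 of them by at least 100 bases (LHCB1.3, LHCB2.3, LHCB3, LHCB6, PSAH1 and PSAH2), PSAG overlaps by 479 bases a gene that is not in the table, and whether the counting used strand was not given in the sources used here.

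Other nuclear genes of photosynthesis were grouped in lists by function. In Col, on -Pi relative to +Pi medium, 14 of 16 other thylakoid genes fell, 8 of 14 Calvin cycle genes (FBA2 by 4.34 and GAPA by 3.64, an aldolase and a glyceraldehyde-3-phosphate dehydrogenase), 5 of 9 photorespiration genes (AGT1 by 3.87 and GLYK by 2.63) and 11 of 16 chlorophyll synthesis genes (CRD1 by 3.47 and GUN4 by 3.06), and none of these lists held a gene that rose. Of 16 regulators, 7 fell, HYH by 2.71 and SIG5 by 2.63 the most, and PIF3, a factor of phytochrome signalling, rose by 1.57. Of 3 root plastid isoforms, FD3, the root ferredoxin, fell by 1.31. In no mutant was a root plastid isoform called lower on -Pi than on +Pi medium. Col +Pi replicate 1 was the highest +Pi library for the other thylakoid (721 RPKM, +Pi median 186) and Calvin cycle (508, median 360) sums. The same held for regulators (218, median 143) and root plastid isoforms (435, median 172). Photorespiration and chlorophyll synthesis sums were highest in other groups. The part of that replicate in these falls was not tested. In phr1phl4 relative to Col on -Pi medium, 12 of 16 other thylakoid, 12 of 14 Calvin cycle, 6 of 9 photorespiration, 11 of 16 chlorophyll synthesis and 8 of 16 regulator genes rose, and 1 photorespiration gene fell.

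The genes encoded in the plastid, whose proteins join the nuclear ones in the photosystems, were mostly not called in Col. Of 96 that were tested, 12 fell and 2 rose in Col on -Pi medium. Their RNA was selected by poly(A), which plastid transcripts mostly lack, and their summed level varied within a group, at 4391, 3836 and 3982 RPKM in Col -Pi and 1200, 8513 and 4290 RPKM in Col +Pi. In phr1phl4 relative to Col on -Pi medium 55 rose and 2 fell, and on -Pi relative to +Pi medium within phr1phl4 53 rose and none fell. In phl4 relative to Col on -Pi medium 1 rose and 25 fell, while 37 of the 46 nuclear genes rose. In the same comparison 42 plastid genes fell in phl2 and 33 in phl3, and none rose. All -Pi libraries of phl2 and phl3 and 2 of the 3 of phl4 were of class 2, and those of Col of class 1. The part of class in these plastid falls was not tested. The most abundant pair, ATCG00220 and ATCG00790, had means of 1644 ± 382 and 479 ± 27.8 RPKM in phr1phl4 -Pi and of 896 ± 64.3 and 443 ± 64.2 RPKM in Col -Pi (SD, n = 3 each).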

How the data were processed

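The authors deposited a single table of RPKM values (reads scaled to gene length and library depth) for 33602 genes in 72 root libraries. TAIR10 is the build, and edgeR and TopHat are the tools, named per the submitters' processing notes. Versions, filters and strand setting are not given in the sources used here. Raw counts were not used here, and since a median of 48.25% of low values per library lay within 0.05 of a whole read, no count test was run. RPKM was compared as log2(RPKM + 1) over 21206 genes that reached 1 RPKM in 3 or more libraries, and limma 3.58.1 (R 4.3.3) was fitted to all 24 group means with a mean-variance trend and robust moderation. Benjamini-Hochberg adjustment covered all tested genes, and a call needed an adjusted p under 0.05 and a log2 change of at least 1. The script was tested on simulated data. Gene models, promoters and lengths came from RefSeq's TAIR10.1, which held 32835 of the gene IDs, and were matched by locus tag with Python 3.11.15 and pandas 2.3.3.

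The 46 genes and the other lists were chosen with earlier results of these data known. The rule for named genes took, in each comparison, the largest and smallest change of each subgroup and members against the trend, and for other lists the 2 largest changes in Col. Library classes were formed by k-means on how the values of 9198 other genes, which changed little between media in Col, depended on length, GC and adenine content, and were defined with the data in view. Depth was estimated from the steps between low RPKM values of single-exon genes. Replicates were numbered as in the titles, and the series says they are biological without saying what was kept separate. Alternatives were a pseudocount of 0.1, no filter, median-ratio scaling, the compared groups alone, a replicate block, class as a term and leaving out each library, and, chosen after seeing the data, class 1 libraries alone.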

Additional observations from a re-analysis of the deposited data

Results flagged for a closer look

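The response to -Pi relative to +Pi medium was set against that of Col in each of the 11 mutants, by a direct test of the difference across all genes (limma, adjusted p under 0.05 and a log2 difference of at least 1). Every called member was higher than in Col. Of the 46 genes, 46 were called in phr1phl4 (with 9.51% of all tested genes called higher), 45 in phr1phl1 (13.5%), 43 in the quadruple mutant (22.4%), 41 in phr1phl2 (23%), 41 in phr1phl3 (22.5%), 39 in phl2 (23.6%), 34 in phl4 (5.75%), 33 in the triple mutant (12.9%), 27 in phr1 (4.31%), 18 in phl3 (23.3%) and 8 in phl1 (6.81%). With class as a term, limma called 0 members in phl1, 0 in phl3 and 4 in phl2, and without Col +Pi replicate 1 the count was 0 in phl1, 4 in phl3, 17 in phr1 and 20 in phl4, so these differences do not hold under every setting. The 3 Col -Pi and 3 Col +Pi libraries are in every one of these comparisons. With 3 libraries in each group, Dixon's test for a single distant library was not run. Some libraries that set a mean or a count by themselves are named beside those values, but not all.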

How the results depend on the processing

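Values are deposited RPKM without counts, so calls of members near 0 RPKM rest on few reads. For the alternative settings, here and in the results above, the share of all tested genes called is not given. Those counts of members therefore stand without a background. With class 1 libraries alone, the members called numbered 16 for the response in phr1phl4, 23 and 22 for phl4 and phr1phl2 against Col on -Pi medium, 0, 4, 1, 3 and 14 for phr1, phl1, phr1phl2, phr1phl3 and phr1phl4 against Col on +Pi medium, 0, 21 and 27 for the difference in response in phl1, phl4 and phr1phl2, and 1 for the quadruple against the triple mutant. With class as a term, the response was called for 36, 29, 13 and 15 members in phr1phl2, phr1phl3, phr1phl4 and the quadruple mutant, the -Pi comparison for 0 and 2 in phl2 and phl3, and the +Pi comparison for 4, 8, 15, 2, 1, 15, 1 and 0 in phr1, phl1, phl2, phl3, phl4, phr1phl1, phr1phl2 and the quadruple mutant. The difference in response was then called for 0, 4 and 0 in phl1, phl2 and phl3, and the last step for 1. With the compared groups alone, the counts were 19 and 5 for the response in phl4 and the triple mutant, 0, 0, 10, 13, 1, 1, 4 and 2 on +Pi medium in phr1, phl1, phl3, phr1phl1, phr1phl2, phr1phl3, phr1phl4 and the triple mutant, 1 and 14 for the difference in phl1 and phl4, and 0 for the last step. Scaling gave 2 in phl4 and 5 in phr1phl4 on +Pi medium, no filter gave 4 for the difference in phl1, and a pseudocount of 0.1 gave 16 for the response in phr1phl1, 24, 21 and 11 for phr1, phl2 and phl3 against Col on -Pi medium and 1 for the last step. For each of these the cause was not tested, beyond the smaller number of libraries where libraries were left out. Single members were followed only for 337 calls from part of the comparisons. These were the responses in Col, phr1phl1 and phr1phl4, and phr1phl1 against phr1 on -Pi medium. The rest were phr1, phl4, phr1phl1, phr1phl4, the triple and the quadruple mutant against Col on -Pi medium. None of the 337 changed its sign under any setting, and of their 4371 values 184 lost their call. Signs of single members were not followed in the other comparisons, which include phl2 and phl3. There the median over the 46 genes turned to -0.36 and -0.62 with class as a term, against Col on -Pi medium. It turned to -0.35 for the triple mutant against phr1phl1 without the triple mutant's -Pi replicate 3. Under scaling, 5 of 24 summed levels moved by more than 1 SD.

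Leaving out 1 library at a time, the count ranged from 14 to 32 for the response in the triple mutant, from 1 to 4 for phl3 on -Pi medium, and on +Pi medium from 0 to 20 in phr1, 2 to 24 in phl1, 19 to 38 in phl2, 2 to 23 in phl3, 0 to 5 in phl4, 1 to 18 in phr1phl2, 2 to 19 in phr1phl3, 4 to 10 in the triple and 1 to 8 in the quadruple mutant. It ranged from 17 to 31 for the difference in phr1, 0 to 21 in phl1, 4 to 27 in phl3 and 20 to 41 in phl4, from 0 to 3 for the triple mutant against phr1phl1 and from 0 to 28 for the quadruple against the triple mutant. Col +Pi replicate 1 set the low end of the +Pi counts in phr1, phl1, phl2, phl3, phr1phl2 and phr1phl3 and of the differences in phr1, phl1, phl3 and phl4, and Col +Pi replicate 2 the high end in phr1, phl1, phr1phl2, phr1phl3 and the quadruple mutant. The triple mutant's +Pi replicate 2 gave 14 and its -Pi replicate 1 gave 15 for the response. With a replicate block, none of the 48 counts moved by over 1.5 times, and the deviations of samples of the same number had r over 0.1 in 11 of 36 pairs (13 of 36 matched best with their own number). The highest r were 0.77 and 0.817 for phl4 replicates 2 and 3 and 0.655 and 0.666 for the triple mutant's replicates 1 and 2, beside -0.156 and -0.278 for the remaining pair of each, and no genotype had r over 0.1 in all 3 pairs, so the numbers were not taken as pairs.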
